A study of Homo sapiens with 12 samples.

Results

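The transglutaminases are enzymes that join proteins to each other, and the genes described here are TGM1, TGM2, TGM3, TGM4 and TGM5. They were taken by gene name, 5 of the 58735 genes in the deposited table, and were selected on their FPKM in all 12 libraries, which were already known. Their levels and differences are therefore given as descriptions, without a p-value. RNA was sequenced from 2 established human lines of oesophageal squamous cell carcinoma. In KYSE180 the gene CDCA7, whose protein recruits the remodelling enzyme HELLS to chromatin, was overexpressed (3 libraries), and 3 libraries of native KYSE180 cells, labelled wild type, served as the control. In KYSE150 it was lowered with a short hairpin RNA, named shCDCA7 (3 libraries), and the control was again 3 libraries of native, wild-type cells. All cells grew in RPMI medium with fetal bovine serum. Neither control is labelled as carrying an empty vector or another hairpin, so the delivery of a construct and the change in CDCA7 cannot be told apart. The labels do not say how many clones or hairpins were used, nor that the replicates were separate cultures, so each p-value reflects how far these libraries spread, and that spread may be technical.

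A transglutaminase links a glutamine of 1 protein to a lysine of another through a cysteine in its active site, and calcium switches the enzyme on. TGM1, TGM3 and TGM5 build the cornified envelope, the cross-linked protein shell of keratinising squamous cells. TGM2, or tissue transglutaminase, is made by many cell types, binds guanine nucleotides and, outside the cell, joins fibronectin to integrins. TGM4 is best known as a secreted enzyme of the prostate. The oesophagus is lined by a stratified squamous epithelium, so the envelope enzymes belong to the normal programme of this tissue.

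The coding stretch around the active-site cysteine shows what the 5 genes share. Each line below gives 63 bases of the coding strand from the GENCODE 29 transcript, 5′ to 3′, with the codon of that cysteine in capitals.
TGM1: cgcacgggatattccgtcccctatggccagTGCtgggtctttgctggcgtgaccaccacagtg
TGM2: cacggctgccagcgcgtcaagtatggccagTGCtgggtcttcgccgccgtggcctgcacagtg
TGM3: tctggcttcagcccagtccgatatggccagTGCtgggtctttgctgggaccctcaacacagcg
TGM4: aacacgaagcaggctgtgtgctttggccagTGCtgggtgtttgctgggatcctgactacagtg
TGM5: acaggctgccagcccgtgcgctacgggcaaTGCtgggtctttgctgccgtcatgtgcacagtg
The cysteine is codon 377 of 817 in TGM1, 277 of 687 in TGM2, 273 of 693 in TGM3, 268 of 684 in TGM4 and 278 of 720 in TGM5. In every member the stretch is split over 2 exons, and the codon lies in exon 7 of 15 in TGM1, exon 6 of 13 in TGM2, TGM3 and TGM5, and exon 7 of 14 in TGM4. Between members the 63 bases were 55.6% identical for TGM2 and TGM4, the lowest of the pairs, and 73.0% identical for TGM2 and TGM5, the highest.

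On GRCh38, TGM1 (ENSG00000092295) lies on the minus strand of chromosome 14 from 24249114 to 24264432. TGM2 (ENSG00000198959) lies on the minus strand of chromosome 20 from 38127387 to 38166578. TGM3 (ENSG00000125780) is on the plus strand of the same chromosome from 2296001 to 2341078. TGM4 (ENSG00000163810) is on the plus strand of chromosome 3 from 44874608 to 44914990, and TGM5 (ENSG00000104055) on the minus strand of chromosome 15 from 43232595 to 43266857. TGM3 has the family member TGM6 as its next protein-coding gene, and TGM5 lies between EPB42 and TGM7, which also belong to the family.

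The libraries held between 16.3 M and 19.6 M reads, and their values are FPKM, reads scaled by gene length in kilobases and by an effective library size. CDCA7 itself had 44.6, 59.1 and 57.9 FPKM with overexpression, against 24, 18.2 and 17.4 FPKM in KYSE180 controls. It had 9.24, 10.1 and 8.83 FPKM with shCDCA7, against 27.4, 25.6 and 25.6 FPKM in KYSE150 controls. Replicate 2 of shCDCA7 stood apart, with 11.2% mitochondrial reads, against 5.2% and 5.73% in the other shCDCA7 libraries and 4.03% to 4.15% in KYSE150 controls. Mitochondrial reads made up 7.97% to 8.65% with overexpression, against 4.76% to 6.38% in KYSE180 controls. All 10 squamous epithelium markers averaged at least 1 FPKM in each group. The summed markers of fibroblasts, endothelium and leukocytes stayed between 0.0563 and 5.51 FPKM in every library.

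TGM2 was the transglutaminase of KYSE150, and its level there was lower with shCDCA7. TGM2 had 38, 43.1 and 37.4 FPKM with shCDCA7 (4835, 4734 and 5288 reads), against 80.7, 76.5 and 72.4 FPKM in KYSE150 controls (13868, 11947 and 11641 reads). Every shCDCA7 library lay below every control, and replicate 2, the library that stood apart, had the highest TGM2 of its group. The means were 39.5 ± 3.08 FPKM with shCDCA7 and 76.5 ± 4.12 FPKM in controls (SD, n = 3 each), a ratio of 0.516. On the scale of log2(FPKM + 1), used for all differences below, this was −0.94 (SE 0.0939). The difference stayed between −1.0 and −0.90 when each of the 6 libraries was left out in turn. In controls TGM2 ranked 415 of 19951 protein-coding genes by mean FPKM, and with shCDCA7 it ranked 1142. In bulk RNA, fewer cells with TGM2 and less TGM2 RNA per cell cannot be told apart.

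In KYSE180, TGM2 was close to the limit of counting. It had 0.0539, 0.0555 and 0.122 FPKM with overexpression (7, 8 and 18 reads), against 0.0362, 0.0134 and 0.0316 FPKM in controls (5, 2 and 5 reads). The ranges did not overlap, but the reads were too few for the gene to be tested in this line. A gene was tested where at least 3 libraries of the fit held at least 10 reads per median-sized library and at least 15 reads were found in all.

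Of the members tested in KYSE180, TGM4 had the larger difference after CDCA7 overexpression. It had 3.44, 3.86 and 3.37 FPKM with overexpression (303, 377 and 338 reads), against 0.321, 0.534 and 0.587 FPKM in KYSE180 controls (30, 54 and 63 reads). The overexpressing libraries lay close together and far above all controls. The means were 3.56 ± 0.267 FPKM with overexpression and 0.481 ± 0.141 FPKM in controls (SD, n = 3 each), a ratio of 7.41. The difference was 1.63 (SE 0.123), smaller than the ratio of the means because 1 is added to each value before the log. Leaving out each library in turn gave 1.55 to 1.68.

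In KYSE150, TGM4 was near the counting limit in both groups. It had 0.0813, 0.0671 and 0.0836 FPKM with shCDCA7 (7, 5 and 8 reads), against 0.0515, 0.0567 and 0.0276 FPKM in controls (6, 6 and 3 reads). These ranges did not overlap either, yet they rest on 20 reads with shCDCA7 and 15 reads in controls, and TGM4 was not tested there. The prostate marker KLK3 was at 0 in all 12 libraries and MSMB was at 0 in the overexpressing ones, where TGM4 was highest. Of the 6 prostate markers, 1 averaged at least 1 FPKM with overexpression (ACPP, 2.6 ± 0.230 FPKM) and 2 did so in KYSE180 controls. Their summed level was 3.21 to 3.84 FPKM with overexpression, against 2.25 to 6.42 FPKM in controls.

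TGM1, the membrane-bound enzyme of the envelope that is mutated in lamellar ichthyosis, led in KYSE180 controls and varied between their replicates. It had 4.50, 5.72 and 6.21 FPKM with overexpression (272, 383 and 427 reads), against 6.12, 9.83 and 4.78 FPKM in controls (393, 682 and 352 reads). The ranges overlapped, and control replicate 2 was the highest. The means were 5.48 ± 0.877 FPKM with overexpression and 6.91 ± 2.61 FPKM in controls (SD, n = 3 each), a difference of −0.25 (SE 0.235). Without control replicate 2 the difference was 0.0041, so its direction rests on that library.

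TGM1 was lower in KYSE150 and overlapped between its groups too. It had 0.626, 0.587 and 0.746 FPKM with shCDCA7 (37, 30 and 49 reads), against 0.976, 0.826 and 0.736 FPKM in controls (78, 60 and 55 reads). The means were 0.653 ± 0.0829 FPKM with shCDCA7 and 0.846 ± 0.121 FPKM in controls (SD, n = 3 each). The difference was −0.16 (SE 0.0794), and shCDCA7 replicate 3 lay above control replicate 3.

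TGM3, the soluble epidermal enzyme whose precursor is cut by proteases, was found only in KYSE180 libraries and at low reads. It had 0.207, 0.166 and 0.202 FPKM with overexpression (9, 8 and 10 reads), against 0, 0.420 and 0.0942 FPKM in controls (0, 21 and 5 reads). The overexpressing libraries lay within the wide range of the controls, and control replicate 2 was the highest, as it was for TGM1. All 6 KYSE150 libraries had 0 reads of TGM3, which allows a level of up to 0.0521 to 0.0814 FPKM, the value of 3 reads in each library.

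TGM5, an enzyme of the upper epidermis mutated in a peeling skin disorder, was at or near 0 in every library. It had 0 reads in all 3 overexpressing libraries, which allows up to 0.0448 to 0.0511 FPKM, against 5, 0 and 0 reads in KYSE180 controls. It had 0, 3 and 7 reads with shCDCA7, against 8, 1 and 5 reads in KYSE150 controls. No difference was detectable at this depth. Among the other family members, TGM6, F13A1 (the A chain of coagulation factor XIII) and EPB42 (a red cell membrane protein without enzyme activity) had no read in any library. TGM7 had 1 read, in shCDCA7 replicate 1.

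**Figure D1:**
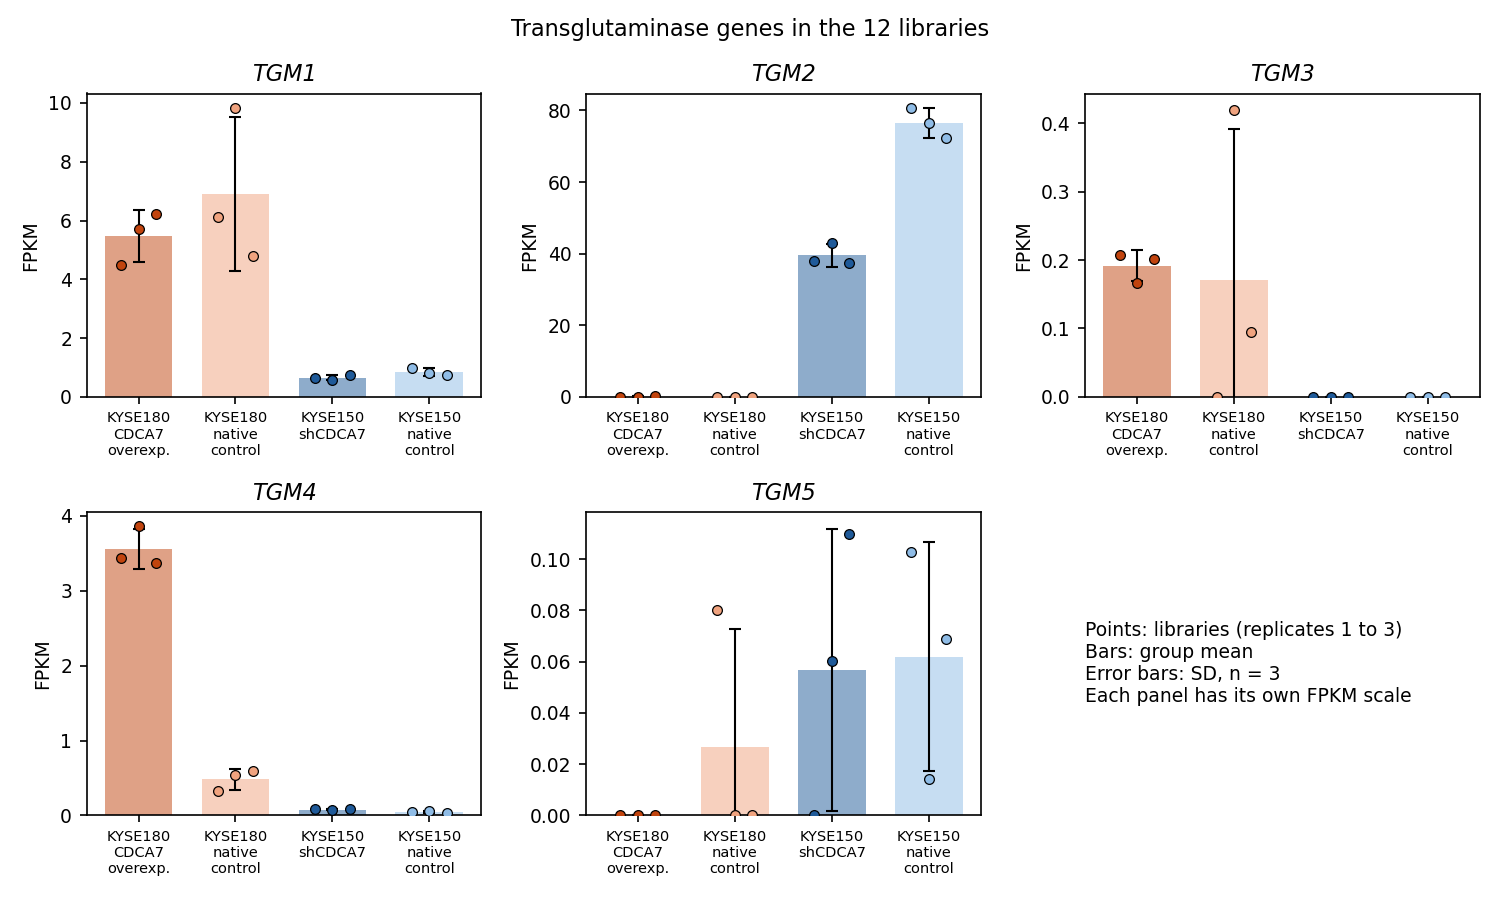
FPKM of TGM1 to TGM5 (vertical axes, 1 linear scale per gene) in the 4 groups, with a point per library, bars for the mean and error bars for the SD (n = 3). TGM2 is at 37.4 to 43.1 FPKM with shCDCA7 against 72.4 to 80.7 FPKM in KYSE150 controls, and TGM4 at 3.37 to 3.86 FPKM with overexpression against 0.321 to 0.587 FPKM in KYSE180 controls.

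The filter left 2 of the 5 members for testing in each line, TGM1 and TGM4 in KYSE180 and TGM1 and TGM2 in KYSE150. Calls were made in limma where the p-value, adjusted by Benjamini-Hochberg, was under 0.05. With overexpression 1 member, TGM4, was called higher, where 4.65% of the 15944 tested genes were called higher. With shCDCA7 1 member, TGM2, was called lower, where 9.86% of the 14342 tested genes were called lower. The ranges of the groups did not overlap for 35.1% of genes tested in KYSE180 and 47.8% of genes tested in KYSE150. Nothing is read from these counts, since the members were chosen with the values known. The TGM4 call was lost without overexpression replicate 1 and when no filter was used. The TGM2 call was kept in every alternative. For the same reason, neither outcome is read as support.

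The native lines differed in which transglutaminase they held. TGM1 averaged 6.91 ± 2.61 FPKM in KYSE180 controls and 0.846 ± 0.121 FPKM in KYSE150 controls (SD, n = 3 each), a ratio of 8.17 and a difference of 2.05 (SE 0.198). TGM2 averaged 0.0271 ± 0.0121 FPKM in KYSE180 controls and 76.5 ± 4.12 FPKM in KYSE150 controls. It was 2830-fold lower in KYSE180, a ratio that rests on 12 reads in the 3 KYSE180 controls, and the difference was −6.24 (SE 0.0962). TGM4 averaged 0.481 ± 0.141 FPKM in KYSE180 controls and 0.0453 ± 0.0156 FPKM in KYSE150 controls, a ratio of 10.6 that rests on 15 reads in KYSE150, with a difference of 0.50 (SE 0.0807). None of these 3 genes overlapped between the controls, as for 71.3% of the 17088 genes tested. All 3 were called, 2 higher and 1 lower in KYSE180, beside 33.4% of all tested genes called higher and 24.6% called lower. Nothing is read from these calls, since the members were chosen with the values known, and TGM2 passed the filter only through the KYSE150 libraries and TGM4 only through the KYSE180 libraries, where each is high.

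Across the 4 groups the order of the levels was different for each gene. For TGM2 the KYSE150 controls were highest, then shCDCA7, then overexpression and last the KYSE180 controls, with no overlap between neighbours. For TGM4 overexpression was highest, then KYSE180 controls, then shCDCA7 and last the KYSE150 controls, again without overlap between neighbours. The lower pair of groups of each gene rests on few reads, as given above. For TGM1 the groups of KYSE180 lay above those of KYSE150, and within each line the groups overlapped.

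The summed FPKM of the 5 genes was 9.31 ± 0.951 with overexpression and 7.62 ± 2.81 in KYSE180 controls, and 40.3 ± 3.01 with shCDCA7 and 77.5 ± 4.25 in KYSE150 controls (SD, n = 3 each). TGM1 made up 58.6 ± 3.91% of that sum with overexpression and 90.4 ± 3.19% in KYSE180 controls. TGM4 made up 38.4 ± 4.04% with overexpression and 6.85 ± 3.34% in KYSE180 controls. The shares of both genes did not overlap between these groups. Shares of the same sum depend on each other, and the FPKM of TGM1 itself overlapped between these groups. In KYSE150 TGM2 made up 98.1 ± 0.416% of the sum with shCDCA7 and 98.8 ± 0.153% in controls. TGM2 thus remained nearly the whole of the transglutaminase RNA in KYSE150 at about 1.94-fold less RNA.

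**Figure D2:**
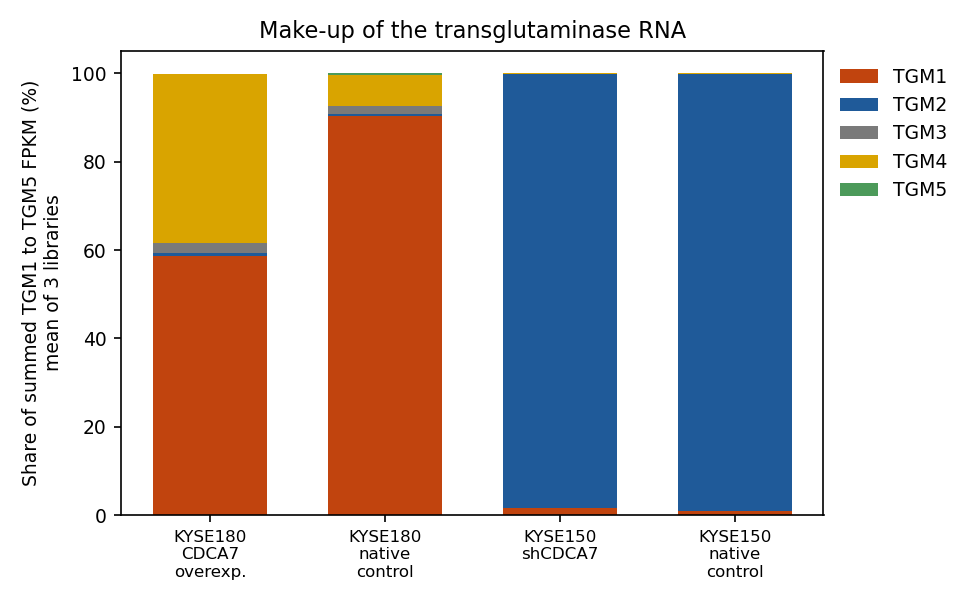
Share of each gene in the summed FPKM of TGM1 to TGM5 (vertical axis, percent, mean of 3 libraries) in the 4 groups. TGM1 and TGM4 take 58.6% and 38.4% with overexpression against 90.4% and 6.85% in KYSE180 controls, while TGM2 takes 98.1% with shCDCA7 and 98.8% in KYSE150 controls.

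The genes beside TGM2 and TGM4 were looked up after the values of the members had been seen. KIAA1755, the next protein-coding gene to TGM2 at 43910 bases and on the same strand, was lower with shCDCA7 as well. It had 0.149, 0.316 and 0.127 FPKM with shCDCA7, against 0.804, 0.598 and 0.674 FPKM in KYSE150 controls. The groups did not overlap, as for 47.8% of all genes tested in KYSE150. The difference was −0.50 (SE 0.0839, limma adjusted p = 0.0117), with an adjusted p of up to 0.0624 when a control library was left out. KIAA1755 averaged 0.00671 FPKM with overexpression and 0.00837 FPKM in KYSE180 controls, so that, like TGM2, it was near 0 in KYSE180. Between the native lines it was lower in KYSE180 by a difference of −0.75 (SE 0.0656, limma adjusted p = 1.99e-06). KIAA1755 passed the filter of that fit through the KYSE150 libraries, where it is higher, so nothing is read from that call.

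RPRD1B, a regulator of RNA polymerase II, runs on the other strand and shares its last bases with the end of TGM2. It had 14.5 ± 0.352 FPKM with shCDCA7 and 17.6 ± 0.319 FPKM in KYSE150 controls (SD, n = 3 each), a difference of −0.26 (SE 0.0792) with a limma adjusted p of 0.0603. The sources used here do not give whether reads were counted by strand, so reads of the shared stretch may have gone to either gene. RPRD1B averaged 15.5 FPKM with overexpression and 16.0 FPKM in KYSE180 controls, where TGM2 was below 0.13 FPKM in every library. TTI1, on the other side, had a difference of −0.31 (SE 0.136, limma adjusted p = 0.154) with shCDCA7.

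AC098649.1, a non-coding gene from 44899178 to 44900925 on chromosome 3, lies inside TGM4 on the same strand. It had 0.978, 2.65 and 1.53 FPKM with overexpression, against 0, 0.568 and 0.267 FPKM in KYSE180 controls, without overlap, and it was at 0 in all KYSE150 libraries. Its reads were too few for a test, and reads of TGM4 transcripts may be among them. The protein-coding neighbours of TGM4 did not pass the test with overexpression. KIF15, a mitotic motor, had a difference of 0.34 (SE 0.160, limma adjusted p = 0.202), and ZDHHC3, a palmitoyltransferase 267 bases away, 0.24 (SE 0.105, limma adjusted p = 0.168). Beside TGM1, TINF2, a telomere protein, rose with overexpression to 38.3, 31.5 and 34.8 FPKM, against 21.1, 23.2 and 23.2 FPKM in KYSE180 controls. That difference was 0.60 (SE 0.117, limma adjusted p = 0.0288), and the adjusted p reached 0.128 among its alternatives. RABGGTA, on the other side of TGM1, had a difference of 0.09 (SE 0.111, limma adjusted p = 0.628).

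**Figure D3:**
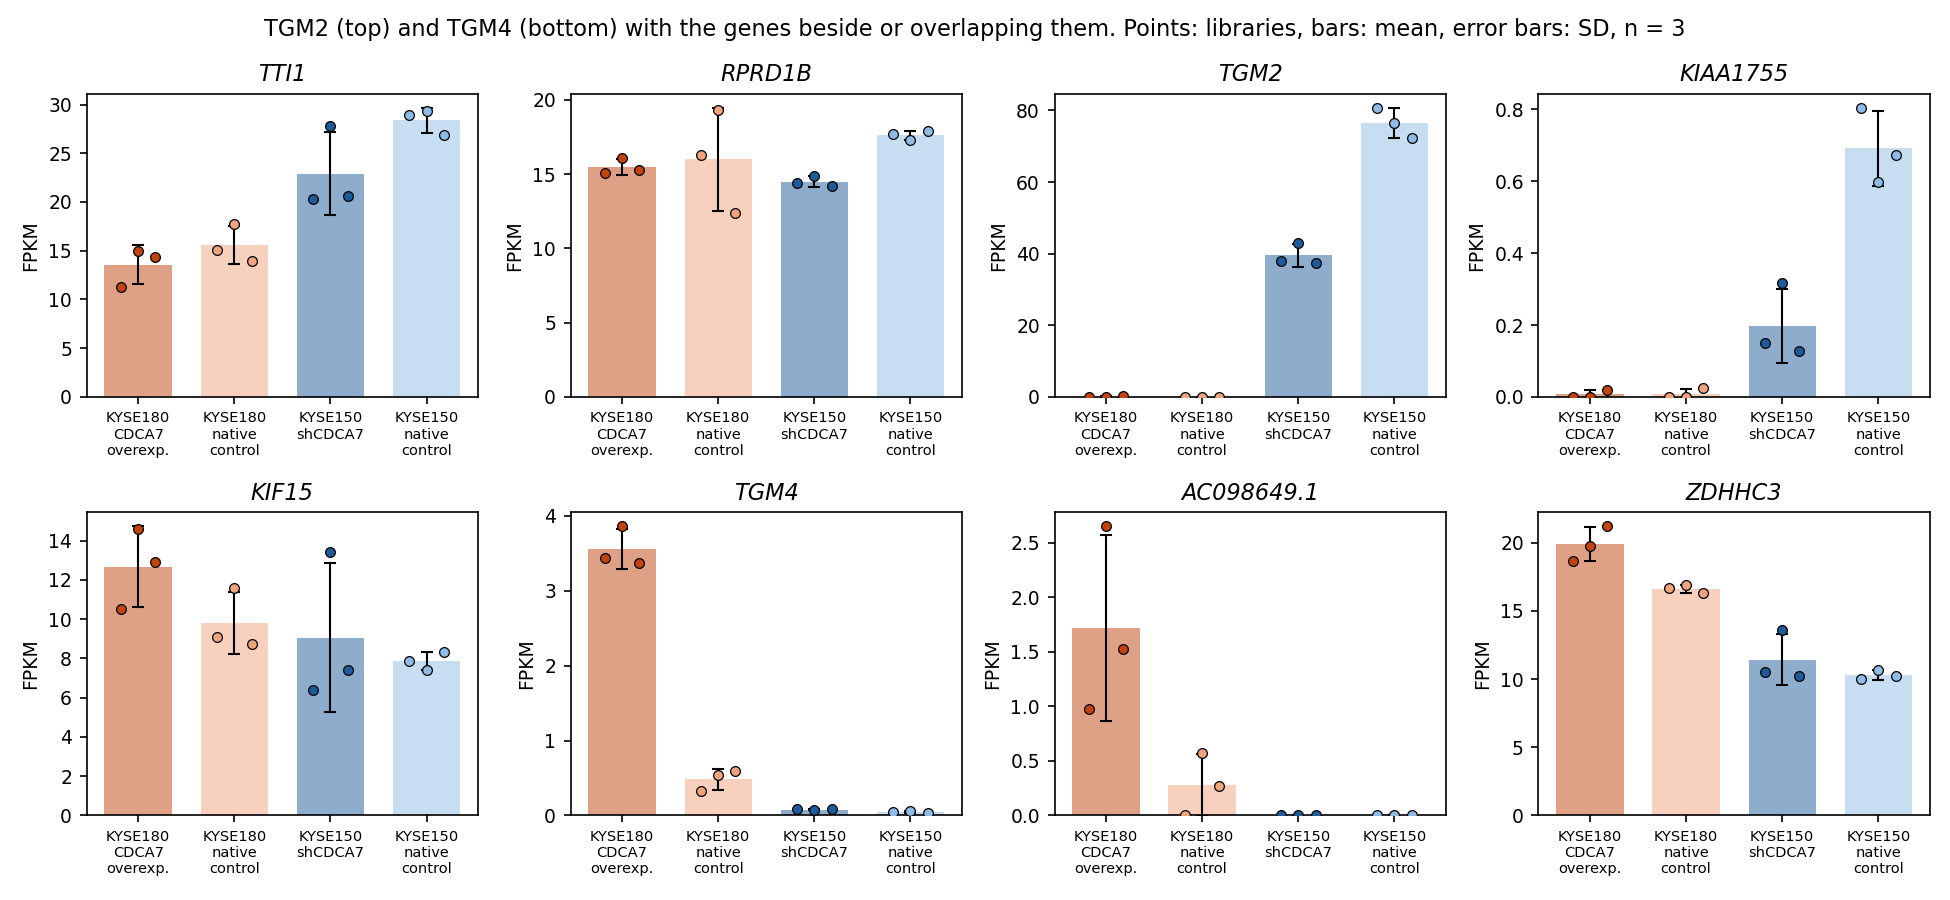
FPKM (vertical axes, 1 linear scale per gene) of TGM2 with TTI1, RPRD1B and KIAA1755 in the top row, and of TGM4 with KIF15, AC098649.1 and ZDHHC3 in the bottom row, by group, with a point per library, bars for the mean and error bars for the SD (n = 3). KIAA1755 follows TGM2 at 0.127 to 0.316 FPKM with shCDCA7 against 0.598 to 0.804 FPKM in KYSE150 controls, and RPRD1B, which overlaps TGM2, averages between 14.5 and 17.6 FPKM in the 4 groups.

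Genes of the proteins that TGM1, TGM3 and TGM5 cross-link changed in both directions with CDCA7 overexpression. Of the 32 genes of cornified envelope substrates 21 were tested, 2 rose, 2 fell and 17 did not pass, beside 9.08% of all tested genes called in either direction. Their median difference was 0.34, against −0.0049 over all tested genes. SPRR1A, a small proline-rich envelope protein, rose to 6.87, 3.72 and 4.82 FPKM with overexpression, against 0.216, 1.2 and 0 FPKM in KYSE180 controls (difference 2.11, SE 0.306, limma adjusted p = 0.0148). SPRR1A passed the filter only through the overexpressing libraries, where it is high, so nothing is read from its call. KRT1, a keratin of differentiating epidermis, rose to 2.83, 3.41 and 3.90 FPKM, against 0.725, 0.995 and 0.122 FPKM (difference 1.48, SE 0.218, limma adjusted p = 0.0159).

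TCHH and HRNR fell with overexpression, where 4.43% of all tested genes were called lower. TCHH, or trichohyalin, a TGM3 substrate of hair sheath and tongue, had 5.86, 7.59 and 7.25 FPKM with overexpression, against 20.3, 10.1 and 18.3 FPKM in KYSE180 controls (difference −1.08, SE 0.243, limma adjusted p = 0.0379). HRNR, or hornerin, a filaggrin-like protein, had 0.0450, 0.145 and 0.113 FPKM with overexpression, against 0.653, 0.392 and 0.380 FPKM (difference −0.42, SE 0.0909, limma adjusted p = 0.0351). None of these 4 genes overlapped between the groups, as for 35.1% of all genes tested in KYSE180. KRT4, a mucosal keratin, was at 1.70, 1.55 and 1.59 FPKM with overexpression and at 79.1, 1.04 and 48.5 FPKM in controls, so its controls lay on both sides of the overexpressing libraries. IVL and LOR, the classical envelope proteins involucrin and loricrin, were at 0 in all 12 libraries.

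With shCDCA7, 12 of the 32 envelope genes were tested, 2 rose, 1 fell and 9 did not pass, beside 19.9% of all tested genes called in either direction. Their median difference was 0.23, against 0.0020 over all tested genes. ANXA1, or annexin A1, rose to 347, 352 and 321 FPKM with shCDCA7, against 208, 202 and 217 FPKM in KYSE150 controls (difference 0.70, SE 0.0920, limma adjusted p = 0.0064). S100A11, a calcium-binding protein, rose to 717, 827 and 814 FPKM, against 520, 569 and 543 FPKM (difference 0.53, SE 0.114, limma adjusted p = 0.0243). FLG, or filaggrin, fell to 0.0794, 0.281 and 0.147 FPKM with shCDCA7, against 0.510, 0.537 and 0.518 FPKM (difference −0.38, SE 0.0732, limma adjusted p = 0.0169). Without shCDCA7 replicate 2, 7 rose and 1 fell. Without control replicate 1 or 2 limma called 0 in either direction, and without control replicate 3 or shCDCA7 replicate 3 it called 1 higher and 0 lower.

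**Figure D4:**
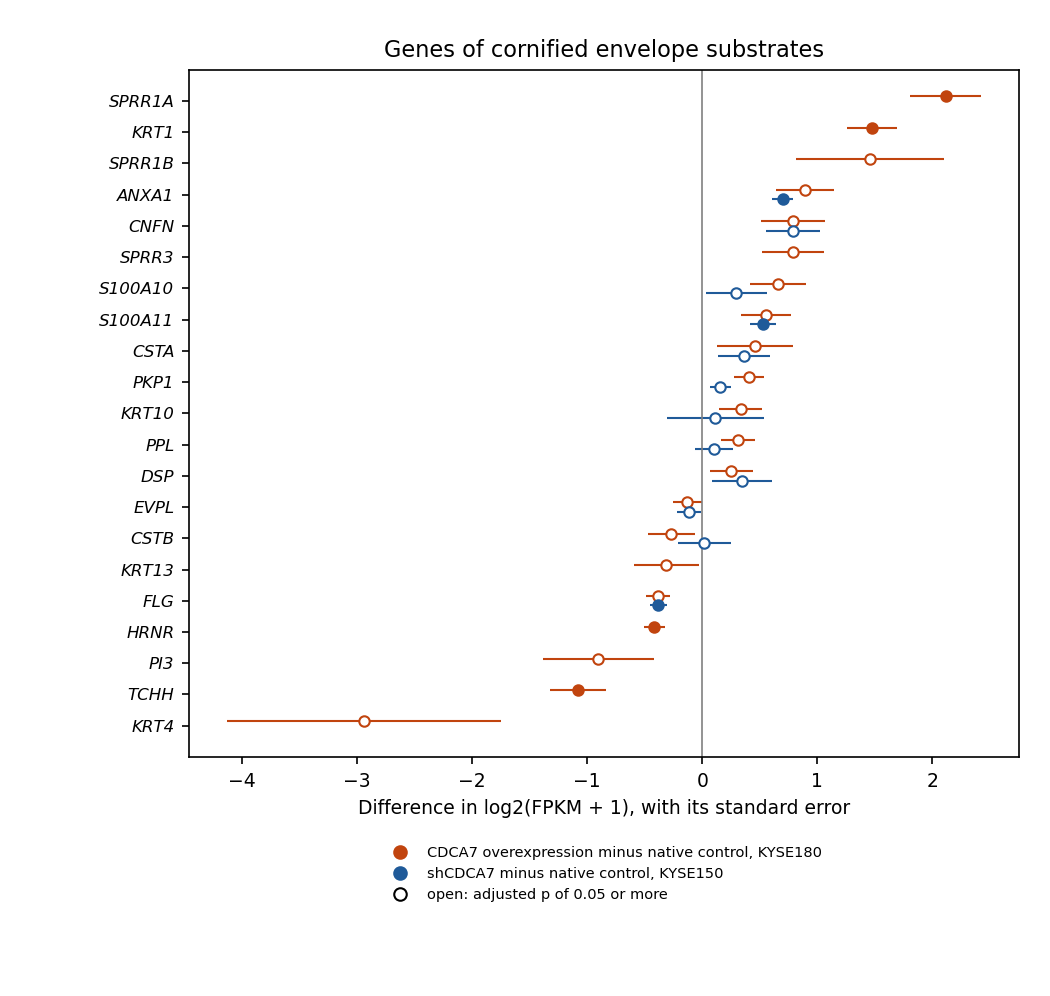
Difference in log2(FPKM + 1) with its standard error (horizontal axis) for each tested gene of the cornified envelope list, with overexpression against native KYSE180 in orange and shCDCA7 against native KYSE150 in blue; filled points have an adjusted p under 0.05. Filled points are SPRR1A and KRT1 on the right and TCHH and HRNR on the left for KYSE180, and ANXA1 and S100A11 on the right and FLG on the left for KYSE150.

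Among 20 genes of TGM2 partners and substrates, 18 were tested in KYSE150, and 5 rose and 0 fell with shCDCA7, beside 10% of all tested genes called higher. Their median difference was 0.45, against 0.0020 over all genes tested there. NFKBIA, the inhibitor of NF-kappa-B that TGM2 can cross-link, rose to 30.2, 26.6 and 34.2 FPKM with shCDCA7, against 11.4, 12.3 and 11.4 FPKM in KYSE150 controls (difference 1.30, SE 0.113, limma adjusted p = 0.00249). SDC4, or syndecan-4, a co-receptor for fibronectin-bound TGM2, rose to 123, 125 and 128 FPKM, against 60.6, 63.8 and 63.0 FPKM (difference 0.99, SE 0.0767, limma adjusted p = 0.002). ITGB1, the integrin chain that TGM2 binds at the cell surface, rose to 93.1, 132 and 95.4 FPKM, against 66.5, 65.8 and 66.2 FPKM (difference 0.66, SE 0.145, limma adjusted p = 0.0252). All 3 genes lay above every control in each shCDCA7 library, where the groups did not overlap for 47.8% of all tested genes. PDIA3 and ITGA5 were the other called genes, with differences of 0.49 each. FN1, the fibronectin gene, had 6.25, 13 and 7.77 FPKM with shCDCA7, against 6.03, 6.16 and 5.83 FPKM, and did not pass (difference 0.46, SE 0.239, limma adjusted p = 0.217). The count of genes that rose was 12 without shCDCA7 replicate 2, 3 without shCDCA7 replicate 3, and 2 when control replicate 1, 2 or 3 was left out.

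With overexpression 18 genes of the same list were tested in KYSE180, 2 rose and 0 fell, beside 4.65% of all tested genes called higher. The median difference of the 18 genes was 0.37, against −0.0049 over all tested genes. NID1, or nidogen-1, a basement membrane protein, rose to 15.4, 20.4 and 20.7 FPKM with overexpression, against 4.97, 7.58 and 8.77 FPKM in KYSE180 controls (difference 1.31, SE 0.204, limma adjusted p = 0.0184). TGFB1, the growth factor whose latent form TGM2 helps to activate, rose to 50.5, 40.6 and 42.1 FPKM, against 22.7, 32.4 and 29 FPKM (difference 0.65, SE 0.160, limma adjusted p = 0.0448). TGM2 itself was below 0.13 FPKM in all of these libraries.

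**Figure D5:**
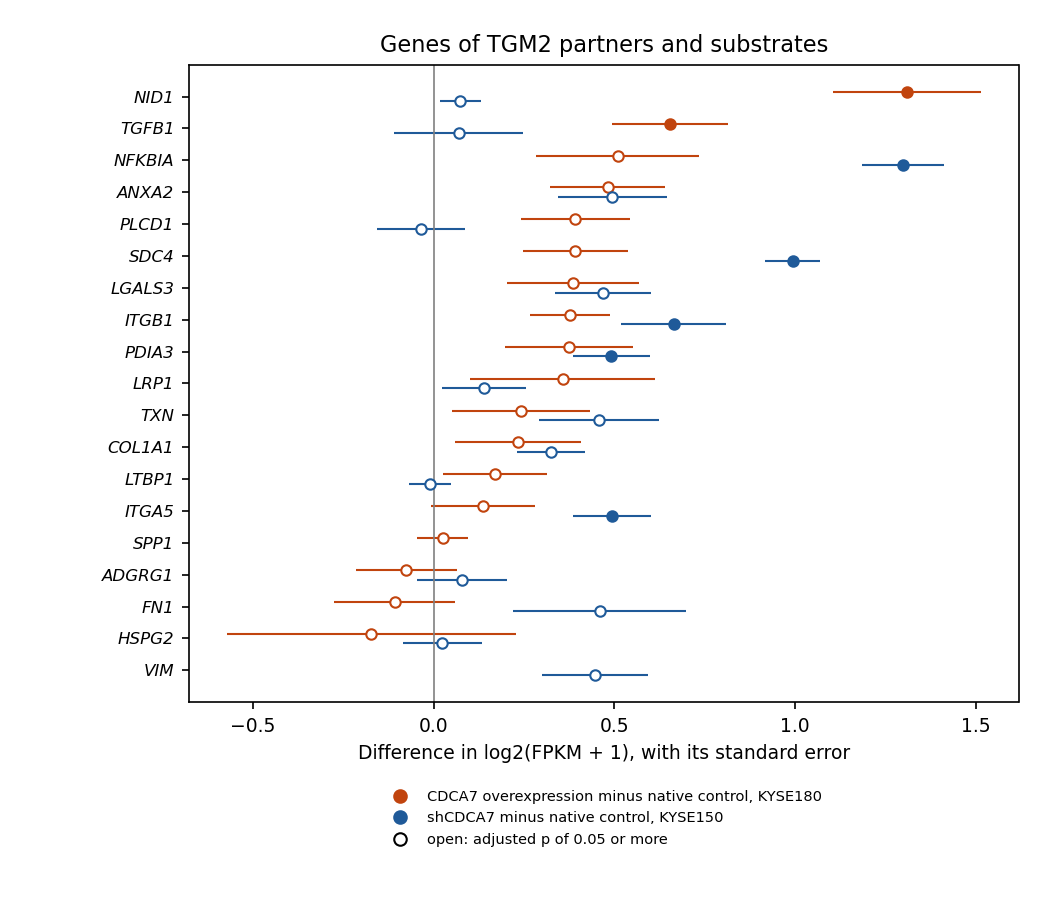
Difference in log2(FPKM + 1) with its standard error (horizontal axis) for each tested gene of the list of TGM2 partners and substrates, with overexpression against native KYSE180 in orange and shCDCA7 against native KYSE150 in blue; filled points have an adjusted p under 0.05. The filled points, NID1 and TGFB1 for KYSE180 and NFKBIA, SDC4, ITGB1, PDIA3 and ITGA5 for KYSE150, all lie to the right of 0.

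The next list holds genes that, like TGM1, are mutated in ichthyosis or are needed for the lipid envelope. With overexpression 0 of 8 tested genes passed in limma, beside 9.08% of all tested genes called in either direction, although 3 of the 8 had an unadjusted p under 0.05 and limma-voom on the reads called 1. With shCDCA7 1 of 6 rose and 1 fell, beside 10% of all tested genes called higher and 9.86% called lower. SULT2B1, a cholesterol sulphotransferase, rose to 0.807, 0.777 and 0.867 FPKM with shCDCA7, against 0.348, 0.474 and 0.408 FPKM in KYSE150 controls (difference 0.37, SE 0.0639, limma adjusted p = 0.013). SLC27A4, a fatty acid transporter, fell to 9.64, 9.52 and 7.32 FPKM, against 14.1, 14.8 and 14.8 FPKM (difference −0.67, SE 0.123, limma adjusted p = 0.0151). When control replicate 1, 2 or 3 was left out neither gene was called, and without shCDCA7 replicate 2 the list had 2 higher and 2 lower.

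Of the proteases and inhibitors that act on transglutaminases or the envelope, 0 of 13 tested genes passed in limma with overexpression, although 6 had an unadjusted p under 0.05 and limma-voom called 1 higher and 1 lower. Of all tested genes limma called 9.08% there in either direction. With shCDCA7 3 of 12 rose and 0 fell, beside 10% of all tested genes called higher and 9.86% called lower. RARRES3, a retinoid-responsive protein that binds and activates TGM1 in keratinocytes and is neither a protease nor an inhibitor of one, rose to 1.12, 0.731 and 0.788 FPKM with shCDCA7, against 0.0360, 0.158 and 0.115 FPKM (difference 0.76, SE 0.0941, limma adjusted p = 0.00554). RARRES3 passed the filter only through the shCDCA7 libraries, where it is high, so nothing is read from its call. LGMN, the protease legumain, rose to 25.8, 24.5 and 26.6 FPKM, against 18.3, 18.6 and 19.6 FPKM (difference 0.42, SE 0.0822, limma adjusted p = 0.0175). CAPNS1, the small subunit of calpains, rose to 109, 130 and 108 FPKM, against 88.4, 90.5 and 82.9 FPKM (difference 0.40, SE 0.106, limma adjusted p = 0.0449). Without shCDCA7 replicate 2 the list had 5 higher and 1 lower, without shCDCA7 replicate 1 or 3 it had 0 called in either direction, and when control replicate 1, 2 or 3 was left out it had 1 higher.

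Retinoic acid restrains TGM1 and induces TGM2 in many cells, and its receptors and responsive genes split in KYSE150. Of 9 tested genes 2 rose and 2 fell with shCDCA7, beside 10% of all tested genes called higher and 9.86% called lower. CRABP2, a retinoic acid carrier, rose to 12.1, 11.7 and 11.6 FPKM with shCDCA7, against 5.86, 6.41 and 5.05 FPKM in KYSE150 controls (difference 0.92, SE 0.109, limma adjusted p = 0.00505). DHRS3, a retinal reductase, rose to 9.87, 8.67 and 9.01 FPKM, against 5.14, 5.88 and 4.60 FPKM (difference 0.72, SE 0.118, limma adjusted p = 0.011). ALDH1A3, which makes retinoic acid, fell to 5.95, 5.48 and 5.31 FPKM, against 9.48, 9.38 and 9.26 FPKM (difference −0.66, SE 0.0930, limma adjusted p = 0.00741). RXRA, the partner receptor, fell to 5.56, 4.68 and 4.96 FPKM, against 8.02, 8.33 and 7.77 FPKM (difference −0.58, SE 0.103, limma adjusted p = 0.014). Without shCDCA7 replicate 2 the counts were 3 and 3, and when control replicate 1, 2 or 3 was left out 1 and 0. With overexpression, where 4.65% of all tested genes were called higher, 1 of 11 tested genes rose and 0 fell. It was ALDH1A1, with 14.9, 13.1 and 12.2 FPKM, against 7.07, 9.20 and 8.03 FPKM in KYSE180 controls (difference 0.67, SE 0.135, limma adjusted p = 0.0308).

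Of the 6 lists tested with shCDCA7, transcription factors of squamous differentiation had the largest share of genes called higher. Of 15 tested genes 8 rose and 0 fell, beside 10% of all tested genes called higher and 9.86% called lower. The median difference was 0.45, against 0.0020 over all tested genes. The lists were chosen with earlier results of these data known. HES1, a target of Notch signalling, rose to 50.3, 25.2 and 56.4 FPKM with shCDCA7, against 9, 10.8 and 12.6 FPKM in KYSE150 controls (difference 1.86, SE 0.304, limma adjusted p = 0.0108). OVOL1, a repressor of epidermal progenitor growth, rose to 2.69, 2.01 and 2.59 FPKM, against 0.425, 0.508 and 0.572 FPKM (difference 1.19, SE 0.107, limma adjusted p = 0.00266). KLF4, a barrier factor, rose to 15.5, 7.93 and 15.5 FPKM, against 5.14, 5.05 and 5.58 FPKM (difference 1.11, SE 0.249, limma adjusted p = 0.0272). For HES1, OVOL1 and KLF4 replicate 2 was the lowest of the shCDCA7 libraries, and still above all controls. The groups did not overlap for 47.8% of all genes tested in KYSE150. The count of genes that rose was 12, with 2 that fell, without shCDCA7 replicate 2, and 3, 3 and 4 without control replicates 1, 2 and 3. In the same comparison 6 of 10 squamous epithelium markers rose, and their summed level was 891 to 1030 FPKM with shCDCA7, against 682 to 719 FPKM in KYSE150 controls. Its part in these results was not tested.

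With overexpression, where 4.65% of all tested genes were called higher, 3 of 17 tested factors rose and 0 fell. Their median difference was 0.34, against −0.0049 over all tested genes. Among them, HES1 rose to 88.9, 60.0 and 71.3 FPKM, against 32.7, 26.1 and 47.3 FPKM in KYSE180 controls (difference 1.06, SE 0.231, limma adjusted p = 0.0355). The summed squamous epithelium markers were at 4330 to 5160 FPKM with overexpression, against 1980 to 4140 FPKM in KYSE180 controls, and 0 of the 10 markers passed in limma, with 5 at an unadjusted p under 0.05. Across the 6 lists, the count of called genes with overexpression was 0 without control replicate 1 and without overexpression replicate 1, 2 or 3. Without control replicate 2 the envelope list had 6 higher and 3 lower, and without control replicate 3 the squamous factors had 5 higher.

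The effects of CDCA7 level in the lines were also compared directly for the named list genes, in 1 fit of all 12 libraries, taking overexpression minus native control in KYSE180 and native control minus shCDCA7 in KYSE150. The effects differed for 28.4% of the 17088 tested genes. HES1 rose in the manipulated cells of both lines, and its effects differed by 2.92 (limma adjusted p = 0.000669). Its effects of more CDCA7 had opposite signs in the lines. HES1 was named because its differences had been called in the same libraries, so this p-value is not separate support.

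Between the native lines, the genes around the transglutaminases differed widely, beside 58% of all tested genes called, 33.4% higher and 24.6% lower in KYSE180. Of 21 tested envelope genes 10 were higher and 5 lower in KYSE180 controls than in KYSE150 controls. KRT13, a mucosal keratin, had 510, 238 and 403 FPKM in KYSE180 controls, against 0.128, 0.124 and 0.0858 FPKM in KYSE150 controls (difference 8.37, SE 0.216, limma adjusted p = 1.07e-10). PI3, or elafin, an elastase inhibitor that transglutaminases link into the envelope, had 205, 63.4 and 46.3 FPKM in KYSE180 controls and at most 0.178 FPKM in KYSE150 controls (difference 6.34, SE 0.407). KRT4 was higher by 4.32 (SE 0.991), with a wide spread among KYSE180 controls. KRT13, PI3 and KRT4 passed the filter through the KYSE180 libraries, where they are high, so nothing is read from their calls. ANXA1 was lower in KYSE180 controls, at 22.9, 48.6 and 26.2 FPKM, against 208, 202 and 217 FPKM in KYSE150 controls (difference −2.72, SE 0.212). S100A10 (difference −1.18) and KRT10 (difference −1.0) were lower too, KRT10 with a limma adjusted p of 0.0274 that reached 0.0664 among its alternatives.

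FN1, the main extracellular partner of TGM2, had 0.118, 0.727 and 0.0908 FPKM in KYSE180 controls, against 6.03, 6.16 and 5.83 FPKM in KYSE150 controls (difference −2.45, SE 0.230, limma adjusted p = 3.49e-06). FN1 and TGM2 were thus both low in KYSE180 and both present in KYSE150. The counts that follow stand beside 33.4% of all tested genes called higher in KYSE180 and 24.6% called lower. Of the 19 tested genes of that list 7 were higher and 6 lower in KYSE180, with LGALS3 (difference −1.54) and ANXA2 (difference −0.98) lower and NFKBIA (3.57), NID1 (2.64) and COL1A1 (1.55) higher. Of 17 tested squamous differentiation factors 13 were higher and 0 lower in KYSE180, among them TP63 (difference 1.62) and CEBPA (1.61). RARB, the retinoic acid receptor beta, had 21.8, 16.7 and 30.6 FPKM in KYSE180 controls and at most 0.0541 FPKM in KYSE150 controls (difference 4.50, SE 0.183, limma adjusted p = 3.07e-09). RARB passed the filter through the KYSE180 libraries, where it is high, so nothing is read from its call. ALDH1A1 (2.63) and DHRS3 (1.01) were higher in KYSE180 as well, and ALDH1A3 (−1.75), CYP26B1 (−1.46) and CRABP2 (−1.04) lower, with 5 of 11 tested retinoic genes higher and 3 lower.

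The list of proteases and inhibitors differed in both directions, with 7 of 15 tested genes higher and 5 lower in KYSE180. The counts in this paragraph stand beside 33.4% of all tested genes called higher and 24.6% called lower. CTSL, the protease cathepsin L, had 12, 11.5 and 16 FPKM in KYSE180 controls and at most 0.0634 FPKM in KYSE150 controls (difference 3.78, SE 0.141, limma adjusted p = 1.56e-09). CST6, cystatin M/E, which restrains cathepsins and legumain upstream of TGM3, had 0.0767, 0 and 0.200 FPKM in KYSE180 controls, against 4, 5.76 and 5.93 FPKM in KYSE150 controls (difference −2.50, SE 0.164, limma adjusted p = 1.55e-07). TGM3 reads, as given above, came from KYSE180. RARRES3 (difference 4.79) and SPINK5 (1.46) were higher in KYSE180, and FURIN (−1.08) and CAST (−1.0) lower. Of 8 tested ichthyosis and lipid envelope genes 4 were higher and 2 lower, with ELOVL4 (1.4), ABCA12 (0.42) and ALOX12B (0.34) higher and ALOXE3 (−1.67) and ST14 (−0.88) lower. ALOX12B had a limma adjusted p of 0.0212, which reached 0.0753 among its alternatives. CTSL and ELOVL4 passed the filter through the KYSE180 libraries and CST6 through the KYSE150 libraries. Each is high there, so nothing is read from these 3 calls.

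Genes with the profile most like that of a member were sought by Pearson's r of log2(FPKM + 1) over the 12 libraries. These libraries share their line, so for TGM1 and TGM2 a high r over all of them mostly repeats the difference between KYSE180 and KYSE150. For TGM4 the difference with overexpression was larger (1.63, against 0.50 between the native lines), so a high r mostly repeats that one. For TGM2 the closest were ANTXR2, TRPV6, SLC13A3, SLC38A5 and LINC01508, with r of 0.998 to 0.999. SLC38A5 averaged 12.8 FPKM with shCDCA7 and 24.4 FPKM in KYSE150 controls. For TGM4 they included DACH1, MARCHF1 (listed under a date-like symbol, ENSG00000145416), ROBO2 and MME, with r of 0.990 to 0.995. DACH1 averaged 1.21 FPKM with overexpression and 0.253 FPKM in KYSE180 controls, and it was at 0 in both KYSE150 groups. ROBO2 and MME were low even with overexpression, at 0.057 and 0.16 FPKM. For TGM1 they were GREB1L, MAP9, SLC16A10, DUSP9 and CUL4A, with r of 0.991 to 0.995.

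The mean of the 2 within-line r, each over 6 libraries, removes the difference between the lines but not that between the groups. By this measure the closest genes to TGM2 were AL121929.2 (0.959), SEMA5A (0.944) and B3GNT3 (0.943). B3GNT3 averaged 17.5 FPKM with shCDCA7 and 30.2 FPKM in KYSE150 controls. Closest to TGM4 were MANBAL (0.980), TESK2 (0.944) and FOXK1 (0.943), and closest to TGM1 were ACTR5 (0.920), XDH (0.917) and AC097358.2 (0.912). MANBAL averaged 45.8 FPKM with overexpression and 28.7 FPKM in KYSE180 controls. For TGM2 the KYSE180 part of each mean rests on 2 to 18 TGM2 reads per library. For TGM4 the KYSE150 part rests on 3 to 8 TGM4 reads per library. SEMA5A averaged 0.0015 FPKM with overexpression and 0 FPKM in KYSE180 controls, and AL121929.2 averaged 0.0509 and 0 FPKM. No likeness in the low line is read from these values.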

How the data were processed

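RNA was measured by bulk sequencing in 12 libraries of KYSE180 and KYSE150 cells, grouped by the sample labels, with each value column matched to 1 label. The deposited table holds FPKM, normalised by the authors per kilobase of gene and by an effective library size; the unit is not named in it and was read from the values. FPKM times gene length gave whole reads for 100% of values above 0 (tolerance 0.01 reads). Per the submitters' processing notes, HISAT2 2.0.5 and DESeq2 1.20.0 were used and the build is mm10, a mouse build, whereas the identifiers and positions of all 58735 genes match GENCODE 29 for human GRCh38. The sources used here do not give the counting tool.

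Differences were fitted with limma 3.58.1 (R 4.3.3, and the package data.table, version 1.17.8) with an intensity trend on log2(FPKM + 1), two-sided, with Benjamini-Hochberg adjustment over all tested genes and a call under 0.05. Each line was fitted on its 6 libraries; the native controls, and the difference between the lines, came from 1 fit of all 12. The scripts were tested on simulated data. The members and the 7 lists were chosen with earlier results of these data known. All members and other family genes are named, and from each list up to 3 called genes per direction with the largest difference; PDIA3, ITGA5, FN1, KRT4, IVL, LOR and the neighbouring genes were added after their values were seen. For likeness, the 5 closest genes over 12 libraries and the 3 closest within lines are named. Some genes that these rules pick are not reported here, but are included in the counts. Limits for 0 reads use 3 reads and cover counting error only. The alternatives were an added 0.1, 2 other filters, total-read and upper-quartile scaling, limma-voom on the recovered reads, a replicate block, other sets of fitted libraries, and leaving out each library.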

Additional observations from a re-analysis of the deposited data

Results flagged for a closer look

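For the named list genes the effect of more CDCA7 in KYSE180 (overexpression minus native control) was compared with that of more CDCA7 in KYSE150 (native control minus shCDCA7), in 1 limma fit of all 12 libraries with adjustment over 17088 genes, of which 28.4% were called. The difference of the 2 effects equals the sum of the differences each manipulation gave, so a positive value means that the manipulated cells were, on balance, higher than their controls. It was positive among the squamous factors HES1 (2.92), OVOL1 (1.53) and KLF4 (1.51). Among envelope genes it was 2.35 for SPRR1A, 1.59 for ANXA1, 1.47 for KRT1 and 1.08 for S100A11. It was −1.08 for TCHH, −0.77 for FLG and −0.426 for HRNR. Of these, SPRR1A, KRT1, TCHH and HRNR were at or near 0 in KYSE150. Among TGM2 partners it was 1.81 for NFKBIA, 1.39 for SDC4, 1.38 for NID1 and 1.04 for ITGB1. Among the other lists it was 1.19 for CRABP2, 1.07 for SULT2B1, 0.761 for CAPNS1, 0.721 for LGMN and 0.599 for ALDH1A1, and −1.45 for SLC27A4, −1.13 for ALDH1A3 and −0.727 for RXRA. For these genes the limma adjusted p ran from 0.000271 for SDC4 to 0.0314 for ALDH1A1. Each gene was named because at least 1 of the 2 summed differences had been called in the same libraries. A large sum was therefore favoured beforehand, and these p-values are not separate support. For NID1 and ALDH1A1 the KYSE150 part was small (differences of 0.073 and −0.067 with shCDCA7), so their sums came mostly from KYSE180. Of the other named genes, TGFB1 (0.723, limma adjusted p = 0.0517), DHRS3 (0.816, limma adjusted p = 0.0691) and RARRES3 (0.336, limma adjusted p = 0.356) did not pass.

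In the same fit the sum was −0.406 (SE 0.281) for TGM1, −0.87 (SE 0.136) for TGM2 and 1.67 (SE 0.114) for TGM4. TGM4 was called higher and TGM2 lower, beside 14% and 14.3% of all tested genes, and nothing is read from these calls, since the genes were chosen with their values known. TGM1 and TGM4 are listed here because their effects of more CDCA7 had opposite signs in the lines, while those of TGM2 had the same sign. For TGM4 the KYSE150 part rests on 20 reads with shCDCA7 and 15 reads in controls, and for TGM1 the ranges overlapped in both lines.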

How the results depend on the processing

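Against 1447 called genes with overexpression, 3 were called without a filter, 603 with the replicate block, 2997 in the fit of all 12 libraries, and 1 to 2317 when each library was left out (1, 175 and 8 without overexpression replicates 1, 2 and 3; 75 and 2317 without control replicates 1 and 3). Against 2854 with shCDCA7, 1554 were called without a filter, 1001 with the replicate block, and 410 to 7948 with each library left out (536, 410 and 685 without control replicates 1, 2 and 3; 1758, 7948 and 1530 without shCDCA7 replicates 1, 2 and 3). The cause was not tested. Deviations of same-numbered libraries correlated at −0.0761, −0.0699 and 0.0662 in KYSE180 and 0.0149, −0.0744 and −0.07 in KYSE150. No shared deviation of same-numbered libraries was thus seen, which does not settle whether they were handled together. The count was 8538 to 9568 for the native lines and 3464 to 6144 for the difference between the lines with each library left out. Limma-voom called 1831 genes with overexpression and 2997 with shCDCA7.

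No member's called difference changed sign. Adding 0.1 in place of 1 moved TGM2 to 0.461, TGM3 to 0.428, TGM4 to 2.68 and TGM5 to −0.283 with overexpression, and TGM1 to −0.327 and TGM4 to 0.292 with shCDCA7. Between the native lines it moved TGM1 to 2.83, TGM2 to −9.24, TGM3 to 1.11, TGM4 to 1.97 and TGM5 to −0.373, since a smaller addition shrinks low values less. Total-read scaling gave −0.267 for TGM1 and −1.2 for TGM2 with shCDCA7, and −6.36 for TGM2 between the native lines. Upper-quartile scaling gave −1.04 for TGM2 with shCDCA7. Depth limits TGM3, TGM5, TGM2 in KYSE180 and TGM4 in KYSE150, where few reads lie behind each value.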
